A study of Mus musculus with 18 samples.

Results

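Hearts of mice labelled as carrying a Med13 cardiac knockout (cKO) were compared between a diet with propylthiouracil (PTU) and normal chow. The comparison rests on 6 of the 18 hearts in the series, 3 on chow and 3 on PTU, picked by their genotype and treatment labels without use of any measured value. All mice were C57BL/6, were put on their diet at 8 weeks of age, ate it for 4 weeks and are listed as 12 weeks old. The other 12 hearts, 3 per group, came from wild-type (WT) mice on chow, WT mice on PTU, and mice of each genotype that had the PTU diet and then 3 daily injections of triiodothyronine (T3). The promoter that drives the deletion, and whether the WT mice carried any of its alleles, are not stated in the labels. PolyA RNA of frozen whole hearts was sequenced, and levels are given in FPKM, a unit scaled for transcript length and library size. The labels do not tie each library to an animal of its own, and if hearts or RNA were shared the replicate spread behind every p-value is partly technical.

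PTU blocks the synthesis of thyroid hormone in the thyroid gland. In heart muscle the hormone binds nuclear receptors, chiefly the product of Thra, which activate some genes when hormone is bound and repress them when it is absent. The switch from the fast myosin heavy chain of Myh6 to the slow one of Myh7 is the classic sign of a rodent heart short of the hormone, together with lower expression of the calcium pump gene Atp2a2 and the pacemaker channel gene Hcn2. Med13 belongs to the kinase module of Mediator, the complex that links transcription factors, nuclear receptors among them, to RNA polymerase II.

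The 6 libraries were alike in breadth, with 11767 to 12051 genes at 1 FPKM or more, and the 10 most abundant genes took 12.5% to 17.3% of all FPKM. Read totals are not in the table, and the steps between low values put the deepest of the 6 libraries at 1.49 times the shallowest. Pearson correlations between replicates, across genes, were 0.986 to 0.992 on chow and 0.975 to 0.987 on PTU. Heart markers were present in every library: the summed level of 8 cardiomyocyte markers was 36970 to 54750 FPKM on chow and 32580 to 50420 FPKM on PTU. PTU replicate 2 stood apart in matrix genes. Its summed collagen and matrix level was 3880 FPKM, against 1674 and 1644 FPKM in the other PTU hearts. PTU replicate 3 stood apart in atrial genes: its Myl7, the atrial myosin light chain, was at 799 FPKM against 22.9 and 49.2 FPKM. The summed level of 7 atrial markers, Nppa not among them, was 102 to 248 FPKM on chow, 108 and 192 FPKM in PTU replicates 1 and 2 and 2165 FPKM in PTU replicate 3.

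Med13 was measured at 6.26, 6.34 and 5.09 FPKM in the chow hearts labelled cKO and at 6.05, 4.93 and 5.04 FPKM in the PTU hearts. The diets overlapped, with a log2 change of -0.12 and a 95% interval of -0.35 to 0.11 (limma adjusted p = 0.485). WT hearts were at 5.52, 5.24 and 5.80 FPKM on chow and at 6.55, 5.57 and 6.96 FPKM on PTU, so the level over the whole gene did not set the genotype labels apart. The labels do not give the deleted part of the gene, and a value over the whole gene may not check it; the genotype is therefore named as the labels have it. None of the 7 genes of the Mediator kinase module was called between diets, with log2 changes from -0.12 to 0.19.

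PTU changed a broad set of genes. Of 12587 genes tested with limma on log2(FPKM + 1), 2017 (16.0%) were called at an adjusted p under 0.05. Of these, 810 (6.44% of tested genes) were higher on PTU and 1207 (9.59%) were lower. A change of at least 1 on the log2 scale was met by 201 genes (1.60%), 65 higher (0.516%) and 136 lower (1.08%). The median log2 change of all tested genes was 0.00. The 3 PTU hearts lay wholly above the 3 chow hearts in 1903 genes (15.1%) and wholly below in 2180 genes (17.3%). The total rested on single hearts in part: 955 genes were called without chow replicate 1, 1265 without chow replicate 2 and 1255 without PTU replicate 1. A fit to the 6 hearts alone called 992 genes. In what follows, rose and fell are used of genes called in the fit to all 18 hearts, and fold changes on the log2 scale understate the change of genes with low values. The count given for each gene list stands beside the shares of all tested genes, 6.44% higher and 9.59% lower.

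The sequences before the transcription start are shown first for 4 genes whose change was large, because thyroid hormone receptors bind short DNA motifs there. They come from RefSeq on GRCm38.p6, run 5′ to 3′ on the gene's strand for up to 250 bases before the start, and leave out bases that lie in an exon. The motifs searched on both strands were the receptor half-site AGGTCA and a spaced pair, AGGTNA followed after 4 bases by AGGNCA, in which N is any base; capitals mark the matches.
Myh6, minus strand, chr14:54966642-54966857: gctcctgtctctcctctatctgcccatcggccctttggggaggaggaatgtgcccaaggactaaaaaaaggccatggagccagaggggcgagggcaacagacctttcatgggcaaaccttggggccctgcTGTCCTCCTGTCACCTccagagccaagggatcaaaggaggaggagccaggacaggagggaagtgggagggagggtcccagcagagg
Myh7, minus strand, chr14:54994627-54994876: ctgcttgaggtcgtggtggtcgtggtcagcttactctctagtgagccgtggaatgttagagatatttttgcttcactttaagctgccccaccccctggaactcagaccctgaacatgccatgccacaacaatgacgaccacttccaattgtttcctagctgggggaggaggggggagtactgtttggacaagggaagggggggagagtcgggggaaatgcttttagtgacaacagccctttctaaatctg
Ucp3, plus strand, chr7:100472741-100472989: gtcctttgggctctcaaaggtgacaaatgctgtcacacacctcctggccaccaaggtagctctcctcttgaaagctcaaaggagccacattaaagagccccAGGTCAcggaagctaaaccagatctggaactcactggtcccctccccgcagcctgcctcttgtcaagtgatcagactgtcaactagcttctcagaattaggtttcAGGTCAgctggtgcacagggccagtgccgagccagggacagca
Hcn2, plus strand, chr10:79716384-79716633: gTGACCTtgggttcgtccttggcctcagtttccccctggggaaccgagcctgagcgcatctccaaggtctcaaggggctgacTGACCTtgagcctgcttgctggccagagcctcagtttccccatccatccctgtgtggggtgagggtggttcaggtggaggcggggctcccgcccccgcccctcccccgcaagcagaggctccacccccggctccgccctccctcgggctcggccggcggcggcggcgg
The Myh6 window held 1 spaced pair, on the opposite strand, its first printed base lying 120 bases before the start. The N bases of the pair lie where this match departs from AGGTCA. The pattern thus fits the Myh6 sequence by its form, and the match is no test of the motif. The Ucp3 window held 2 half-sites on the printed strand, beginning 149 and 44 bases before the start. The Hcn2 window held 2 half-sites on the opposite strand, beginning 249 and 168 bases before the start. The Myh7 window held neither motif. The half-site occurred in 14.0% of all 32851 windows and the pair in 0.177%. Among tested genes with a window, 12.9% of 9546 held the half-site in any of their windows. The shares by gene count a gene once and are thus not the same measure as the share by window. All shares are of the full 250 bases, with exon bases left in. Of the genes that fell by at least 1 on the log2 scale, 25 of 102 with a window (24.5%) held the half-site, and of those that rose by as much, 11 of 47 (23.4%). The pair was held by 1 of those 102 genes, Myh6 itself, and by 0 of the 47, beside 19 of the 9546 tested genes (0.199%). A match to these letters is a description of the sequence and not a measured binding site.

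The 2 myosin heavy chain genes, neighbours on chromosome 14, exchanged rank. Myh6 was at 4083, 3732 and 2728 FPKM in the chow hearts and at 148, 137 and 259 FPKM in the PTU hearts. Myh7 was at 196, 113 and 188 FPKM on chow and at 2456, 1662 and 3019 FPKM on PTU. For both genes the diets were far from overlapping: the highest Myh6 value on PTU was below the lowest on chow, and the reverse held for Myh7. The mean of Myh6 was 3514 ± 703 FPKM on chow and 181 ± 67.4 FPKM on PTU (SD, n = 3 each), 19.4-fold lower on PTU. Its log2 change was -4.31 (SE 0.37, limma adjusted p = 6.42e-06). Myh7 averaged 166 ± 45.7 FPKM and 2379 ± 682 FPKM (SD, n = 3 each), 14.4-fold higher, with a log2 change of 3.84 (SE 0.25, limma adjusted p = 5.12e-07). Mhrt, a noncoding transcript that overlaps Myh7 on the other strand, fell from 115, 116 and 57.1 FPKM to 16.4, 9.62 and 15.7 FPKM, a log2 change of -2.67. The libraries do not mark strand, so reads of Myh7 and Mhrt cannot be told apart where they overlap. In hearts labelled cKO that received T3 after PTU, Myh6 stood at 3310, 3743 and 3000 FPKM and Myh7 at 202, 239 and 188 FPKM.

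**Figure D1:**
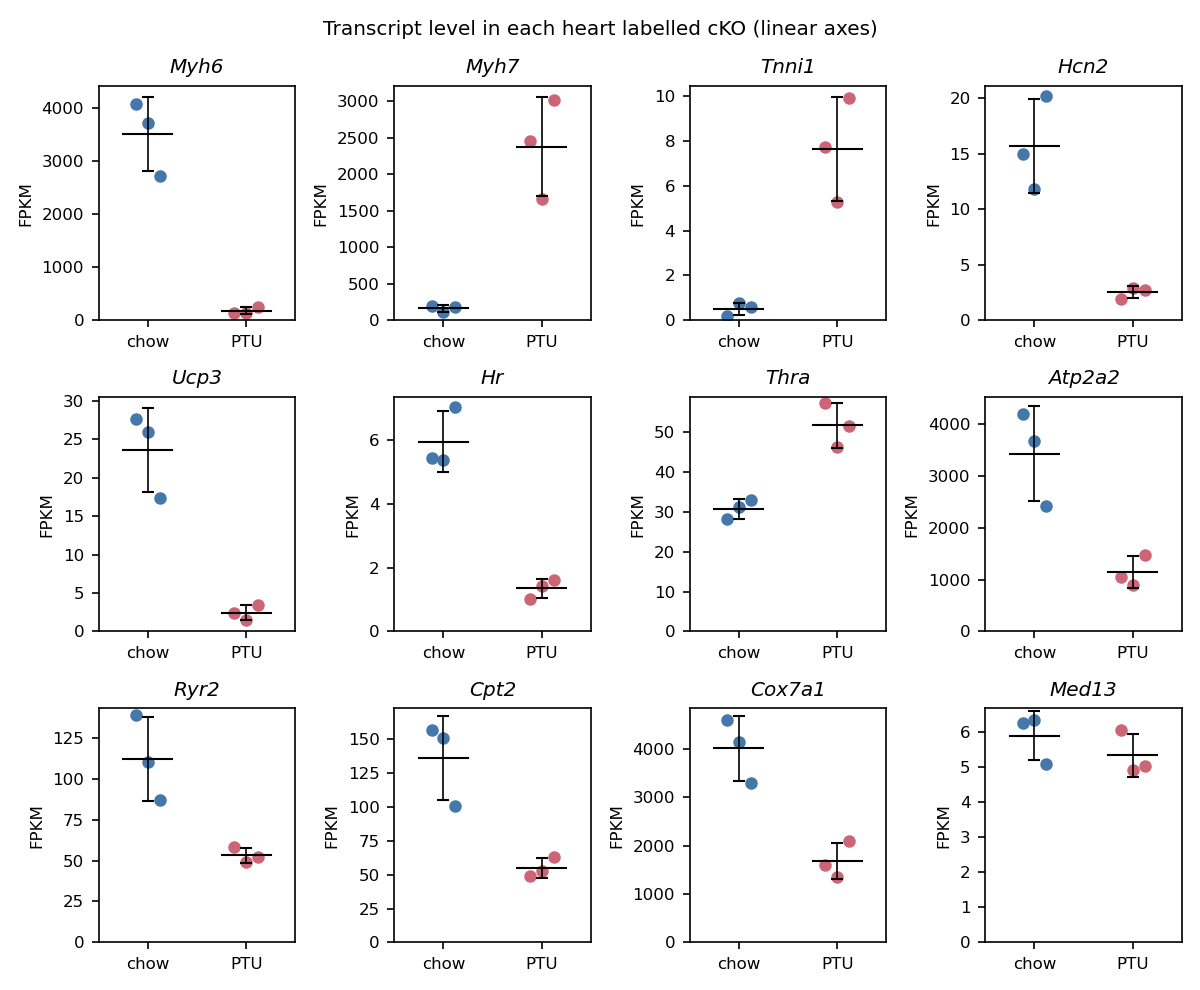
FPKM of 12 genes in each heart labelled cKO, on linear axes from 0; blue points are chow hearts, red points PTU hearts, the bar is the mean and the whisker 1 SD (n = 3). Myh6 lay between 2728 and 4083 FPKM on chow and between 137 and 259 FPKM on PTU, while the diets overlapped for Med13.

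Known targets of induction by thyroid hormone were lower in count: 14 of the 20 tested were called lower and none higher, with a median log2 change of -0.81. Hcn2, which carries the pacemaker current, was at 15.02, 11.8 and 20.2 FPKM on chow and at 1.96, 2.94 and 2.76 FPKM on PTU. Ucp3, a mitochondrial carrier, was at 27.6, 25.9 and 17.4 FPKM on chow and at 2.44, 1.49 and 3.41 FPKM on PTU. Hr, which encodes a corepressor and is a direct receptor target in several tissues, was at 5.44, 5.36 and 7.04 FPKM on chow and at 1.03, 1.41 and 1.62 FPKM on PTU. In none of the 3 genes did the diets overlap. The log2 changes were -2.21 for Hcn2 (SE 0.20), -2.85 for Ucp3 (SE 0.31) and -1.56 for Hr (SE 0.17), with limma adjusted p-values of 8.18e-06, 3.35e-05 and 2.5e-05. Klf9, a transcription factor induced by the hormone in many tissues, fell by 1.03, and Me1, the cytosolic malic enzyme that is a standard liver readout of the hormone, fell by 0.81. Adrb1, the main beta-adrenergic receptor of heart muscle, went from 8.95, 7.30 and 6.78 FPKM to 4.08, 4.81 and 4.27 FPKM, a log2 change of -0.68. Thrsp, a hormone target of liver and fat, was not called, at 37.9, 41.7 and 46.2 FPKM on chow and 36.3, 31.0 and 39.1 FPKM on PTU (limma adjusted p = 0.464). The count of induced genes called lower was 10 to 15 when any 1 of the 6 hearts was left out, and 10 in the fit to the 6 hearts alone. Kcnd2, a potassium channel of the early repolarizing current, was among the 14 but lost its call without any of 5 hearts (limma adjusted p = 0.19 without chow replicate 1).

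Of 8 genes that the hormone represses in heart, 5 rose and none fell, with a median log2 change of 0.61. Tnni1, the slow skeletal troponin I of the fetal heart, went from 0.219, 0.754 and 0.586 FPKM to 7.71, 5.26 and 9.91 FPKM. That is a log2 change of 2.49 (SE 0.31, limma adjusted p = 9.96e-05), and the lowest PTU heart stood well above the highest chow heart. The adult troponin I gene Tnni3 was at 8369, 8467 and 5752 FPKM on chow and 4768, 3627 and 6008 FPKM on PTU, which overlap, and was not called (limma adjusted p = 0.0575). It was called as lower without chow replicate 3 (limma adjusted p = 0.0268), without PTU replicate 3 (limma adjusted p = 0.032) and with limma array weights (limma adjusted p = 0.0203). Slc8a1, the sodium-calcium exchanger, was at 29.7, 28.4 and 22.98 FPKM on chow and 47.1, 45.5 and 46.4 FPKM on PTU, a log2 change of 0.76. Pln, the inhibitor of the calcium pump, overlapped between diets at 4057, 4048 and 2780 FPKM on chow and 4054, 2753 and 3888 FPKM on PTU. Its log2 change of -0.02 had a 95% interval of -0.43 to 0.38.

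Among the receptors and their partners, 1 of 14 tested genes rose and 4 fell. Thra, the main receptor gene of heart muscle, was at 28.1, 31.3 and 32.9 FPKM on chow and at 57.4, 46.2 and 51.5 FPKM on PTU, with no overlap. Its log2 change was 0.73 (SE 0.09, limma adjusted p = 6.63e-05). Thra overlaps Nr1d1 on the other strand, and their shared reads cannot be told apart. Thrb, the second receptor gene, was at 6.59, 5.64 and 4.25 FPKM on chow and 4.63, 3.42 and 3.73 FPKM on PTU and was not called (limma adjusted p = 0.0787). Those that fell included the retinoid receptor Rxrb and the transporters Slc16a10 and Slco2b1, by 0.32, 0.48 and 0.70 on the log2 scale. None of the 4 was called without chow replicate 1 or without chow replicate 2, or in the fit to the 6 hearts alone. In the 26 other Mediator subunits tested, 1 rose and 2 fell, beside 6.44% and 9.59% of all tested genes. None of the 3 kept its call without chow replicate 1, chow replicate 2 or PTU replicate 1.

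In the sarcomere list, which holds both myosins and Tnni1, 3 of 27 tested genes rose and 5 fell, with a median log2 change of -0.02. Myom2, an M-band protein of fast fibres, was at 186, 313 and 281 FPKM on chow and 675, 466 and 662 FPKM on PTU, a log2 change of 1.22. Actc1, the cardiac actin, was at 12083, 12870 and 9172 FPKM on chow and 4975, 6823 and 4991 FPKM on PTU, a log2 change of -1.02. Neither gene overlapped between diets. Acta1, the skeletal actin that is abundant in fetal and strained hearts, was at 445, 1215 and 974 FPKM on chow and 82.6, 294 and 65.4 FPKM on PTU. Its log2 change was -2.78, and its call ended in the fit to the 6 hearts alone (limma adjusted p = 0.0606). Actc1 and Acta1 have closely similar coding sequences, so reads can be split between them in counting. Without chow replicate 3 the count of lower sarcomere genes was 8.

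Calcium cycling genes moved in both directions, with 7 of 23 lower and 3 higher. Atp2a2, the pump that refills the sarcoplasmic reticulum, was at 4194, 3670 and 2409 FPKM on chow and 1055, 895 and 1479 FPKM on PTU. Ryr2, the channel that releases that calcium, was at 139, 110 and 87.1 FPKM on chow and 58.3, 49.4 and 52.0 FPKM on PTU. Every PTU heart was below every chow heart for both genes. The log2 changes were -1.58 for Atp2a2 (SE 0.27, limma adjusted p = 0.00131) and -1.04 for Ryr2 (SE 0.17, limma adjusted p = 0.00116). Hrc, a calcium-binding protein of the same store, fell by 0.95, and Jph2, which holds that store against the surface membrane, fell by 0.68. The exchanger Slc8a1, which removes calcium from the cell, was 1 of the 3 that rose, and the 3 came down to 1 without chow replicate 1 or PTU replicate 1.

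**Figure D2:**
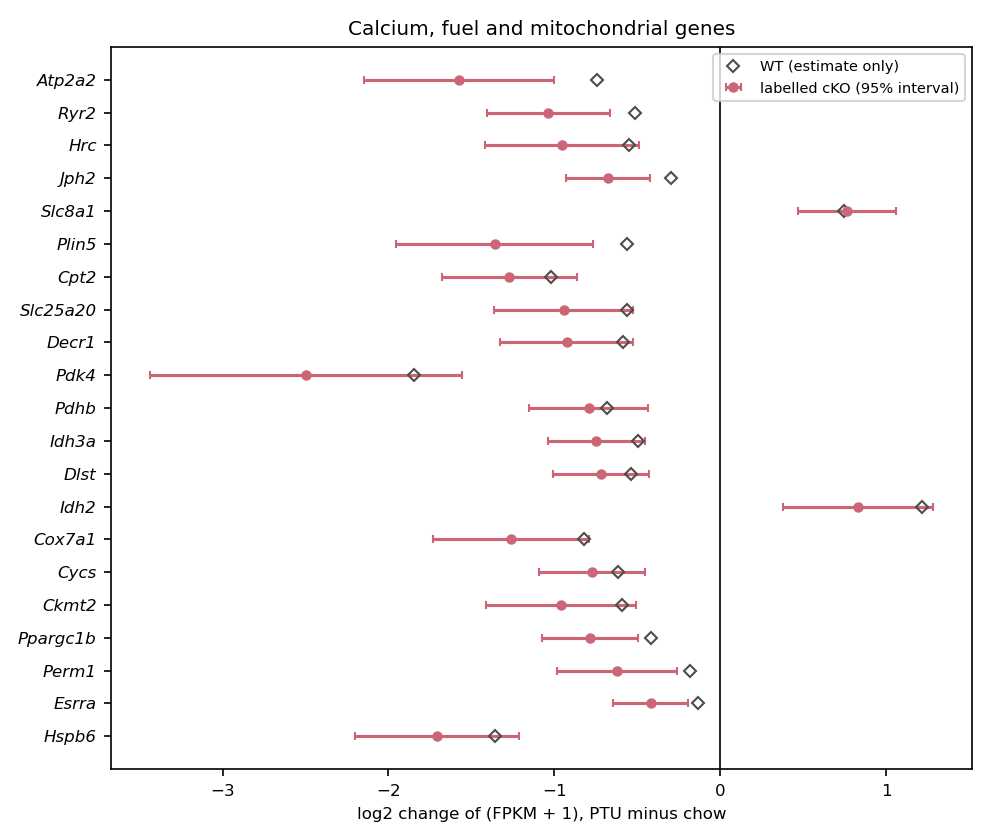
Change of (FPKM + 1) on the log2 scale, PTU minus chow, for 21 calcium, fuel and mitochondrial genes; red points and lines are estimates with 95% intervals in hearts labelled cKO, open diamonds are the WT estimates. Atp2a2 stood at -1.58 in hearts labelled cKO and at -0.75 in WT hearts, and only Slc8a1 and Idh2 among the genes drawn lie above 0.

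Of 27 tested potassium, sodium and pacemaker channel genes 9 were lower and 3 higher, with a median log2 change of -0.25. Of all tested genes 9.59% were lower and 6.44% higher, so falls were the more frequent calls there too. Scn4b, a sodium channel beta subunit, was at 9.99, 11.8 and 8.28 FPKM on chow and at 0.283, 0.634 and 0.674 FPKM on PTU. Scn4a, the skeletal muscle sodium channel, was at 5.68, 4.46 and 5.18 FPKM on chow and at 1.02, 0.903 and 1.005 FPKM on PTU. Kcnv2, a modifier of voltage-gated potassium channels, was at 5.96, 4.27 and 2.13 FPKM on chow and at 0.0880, 0.148 and 0.319 FPKM on PTU. All 3 were low on PTU, with no overlap, and the log2 changes were -2.84, -1.62 and -2.04.

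Adrenergic signalling genes were divided, with 5 of 25 higher and 5 lower. Adra1b, an alpha-1 receptor, was at 13.6, 11.4 and 8.77 FPKM on chow and at 4.61, 5.09 and 6.14 FPKM on PTU, a log2 change of -0.95. Rgs4, a brake on G protein signals, was at 9.66, 11.0 and 10.3 FPKM on chow and at 3.31, 4.52 and 2.83 FPKM on PTU, a log2 change of -1.33. Prkar1a, a regulatory subunit of protein kinase A, was nearly level across chow hearts, at 178, 177 and 175 FPKM. It was at 364, 301 and 280 FPKM on PTU, a log2 change of 0.82. Adra1a, the other main alpha-1 receptor, fell from 4.97, 6.52 and 1.77 FPKM to 0.812, 0.526 and 0.733 FPKM, but its call ended without chow replicate 1 (limma adjusted p = 0.0567) or chow replicate 2 (limma adjusted p = 0.058). The count of higher genes was 2 to 4 when any 1 of the 6 hearts was left out, and 2 without chow replicate 1 or PTU replicate 1. The count of lower genes was 3 without chow replicate 1.

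Of 35 tested genes of fatty acid uptake and oxidation 14 fell and none rose, 32 had an estimate below 0, and the median log2 change was -0.54. Cpt2, the inner-membrane step of fatty acid import into mitochondria, was at 157, 151 and 100 FPKM on chow and at 49.1, 52.6 and 63.2 FPKM on PTU. Angptl4, a secreted inhibitor of lipoprotein lipase, was at 18.9, 18.2 and 11.6 FPKM on chow and at 1.17, 0.889 and 2.38 FPKM on PTU. For both genes all PTU hearts were below all chow hearts, and the log2 changes were -1.27 for Cpt2 (SE 0.19, limma adjusted p = 0.000459) and -2.81 for Angptl4 (SE 0.37, limma adjusted p = 0.000222). Plin5, which coats lipid droplets at mitochondria, fell by 1.36, and the carnitine carrier Slc25a20 and the dienoyl-CoA reductase Decr1 fell by 0.94 and 0.92. The count of 14 depended on the hearts: it was 8 without chow replicate 1, chow replicate 2 or PTU replicate 1 and in the fit to the 6 hearts alone, 9 without PTU replicate 2, and 17 or 18 without PTU replicate 3 or chow replicate 3.

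The respiratory chain showed a smaller shift in the same direction. Estimates were below 0 for 35 of 36 tested genes, with a median log2 change of -0.31, and 9 fell. Cox7a1, the heart and muscle form of a cytochrome oxidase subunit, was at 4598, 4152 and 3288 FPKM on chow and at 1610, 1354 and 2096 FPKM on PTU. Its log2 change of -1.26 (SE 0.22, limma adjusted p = 0.00159) was the largest of the list in size. Cycs, the electron carrier cytochrome c, was at 495, 517 and 366 FPKM on chow and at 273, 238 and 288 FPKM on PTU, a log2 change of -0.77. The 9 calls came down to 2 without chow replicate 1, chow replicate 2 or PTU replicate 2, to 3 without PTU replicate 1, and to 2 in the fit to the 6 hearts alone.

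In the citric acid cycle and at its entry, 6 of 20 tested genes fell and 2 rose. Pdk4, the kinase that shuts pyruvate dehydrogenase, was at 241, 186 and 139 FPKM on chow and at 25.7, 25.6 and 48.8 FPKM on PTU, a log2 change of -2.50 (SE 0.44, limma adjusted p = 0.00211). Pdhb, a subunit of pyruvate dehydrogenase itself, fell by 0.79, and the cycle enzymes Idh3a and Dlst fell by 0.75 and 0.72. Idh2, the NADP-dependent isocitrate dehydrogenase of mitochondria, was at 1139, 1535 and 1160 FPKM on chow and at 2423, 1668 and 2820 FPKM on PTU. Its log2 change was 0.83, and the call ended in the fit to the 6 hearts alone (limma adjusted p = 0.0584) and without chow replicate 1, PTU replicate 1 or PTU replicate 3. No rise in this list was called without PTU replicate 1 or PTU replicate 3.

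Of 30 tested genes of glucose uptake, glycolysis and glycogen 4 fell and 1 rose, beside 9.59% and 6.44% of all tested genes, with a median log2 change of -0.22. Gbe1, the glycogen branching enzyme, fell by 0.73, and Pfkfb2, which makes the activator of phosphofructokinase, fell by 0.56. The count of lower genes was 9 without chow replicate 3 and 8 with limma array weights.

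Among 16 regulators of mitochondrial genes 4 fell and 1 rose. Ppargc1b, a coactivator of mitochondrial genes, was at 8.69, 7.23 and 6.39 FPKM on chow and at 4.61, 3.87 and 3.21 FPKM on PTU, a log2 change of -0.79. Ppargc1a, its better known relative, was at 26.3, 29.2 and 15.9 FPKM on chow and at 43.4, 32.0 and 41.7 FPKM on PTU. The Ppargc1a values did not overlap and lay in the opposite direction, but the gene was not called (log2 change 0.72, limma adjusted p = 0.0587). In a separate list of creatine and adenylate kinase genes, 2 of 8 tested fell and 0 rose, with a median log2 change of -0.23 and 3 estimates above 0. Those that fell were the mitochondrial creatine kinase gene Ckmt2, by 0.96, and Ampd3, an AMP deaminase, by 0.71. Of the 4 regulators called lower, 1 was left without chow replicate 1 or in the fit to the 6 hearts alone, and 2 without chow replicate 2, PTU replicate 1 or PTU replicate 2.

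Chaperone genes fell in 6 of 21 cases with none higher. Hspb6, a small heat shock protein abundant in heart, was at 984, 1076 and 621 FPKM on chow and at 253, 285 and 261 FPKM on PTU, a log2 change of -1.71 (SE 0.23, limma adjusted p = 0.000218). Dnajb5 fell by 0.70. The count of lower chaperones was 3 without chow replicate 1, chow replicate 2, PTU replicate 1 or PTU replicate 2, and 2 in the fit to the 6 hearts alone. Of 20 antioxidant genes 2 rose and 3 fell, beside 6.44% and 9.59% of all tested genes. Gpx4, the lipid peroxide reductase, fell by 0.47, and the other calls of that list each ended without chow replicate 1. In the stress response and serine-folate list 2 of 20 rose and 1 fell, beside the same shares. Ddit4, an inhibitor of mTOR signalling, was at 26.1, 34.3 and 25.8 FPKM on chow and at 67.8, 71.1 and 63.8 FPKM on PTU, a log2 change of 1.22. Without chow replicate 3 the count of higher genes in that list was 4. Of 20 cholesterol and fatty acid synthesis genes 2 rose and 1, Me1, fell, again beside those shares. No rise was left without chow replicate 2 or PTU replicate 1.

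Cardiac transcription factors were called higher only, 5 of 16 on the list, with a median log2 change of 0.20. Tbx20 was at 18.3, 18.8 and 20.6 FPKM on chow and at 34.1, 33.1 and 27.8 FPKM on PTU, and Hand2 at 24.9, 23.8 and 23.9 FPKM against 34.3, 37.6 and 32.2 FPKM. Both are factors of heart development, neither overlapped between diets, and the log2 changes were 0.69 and 0.50. The count of 5 was 2 without chow replicate 1 and 3 without PTU replicate 1 or in the fit to the 6 hearts alone. Growth factor genes were divided, 4 of 19 higher and 3 lower. Igfbp3, a carrier of insulin-like growth factors, was at 9.93, 19.2 and 17.2 FPKM on chow and at 46.8, 38.2 and 60.6 FPKM on PTU, a log2 change of 1.61. Igf2r, which clears one of those factors, rose by 0.92, and Fgf1 fell by 0.72. The 3 lower calls came down to 1 without chow replicate 1, chow replicate 2 or PTU replicate 2, and the 4 higher calls to 2 without PTU replicate 1. Of 17 glucocorticoid, FoxO and atrophy genes 4 rose and 2, Pdk4 and the growth arrest gene Gadd45a, fell; the 4 became 1 without chow replicate 3 or PTU replicate 1, and 2 without chow replicate 1, chow replicate 2 or PTU replicate 3. Gadd45a fell by 1.43. The clock list had 2 of 19 higher and 2 lower, the immediate early list 1 of 15 higher, and the replication and mitosis list 1 of 27 lower. Each of these calls ended without at least 1 heart. Of all tested genes 6.44% were higher and 9.59% lower.

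**Figure D3:**
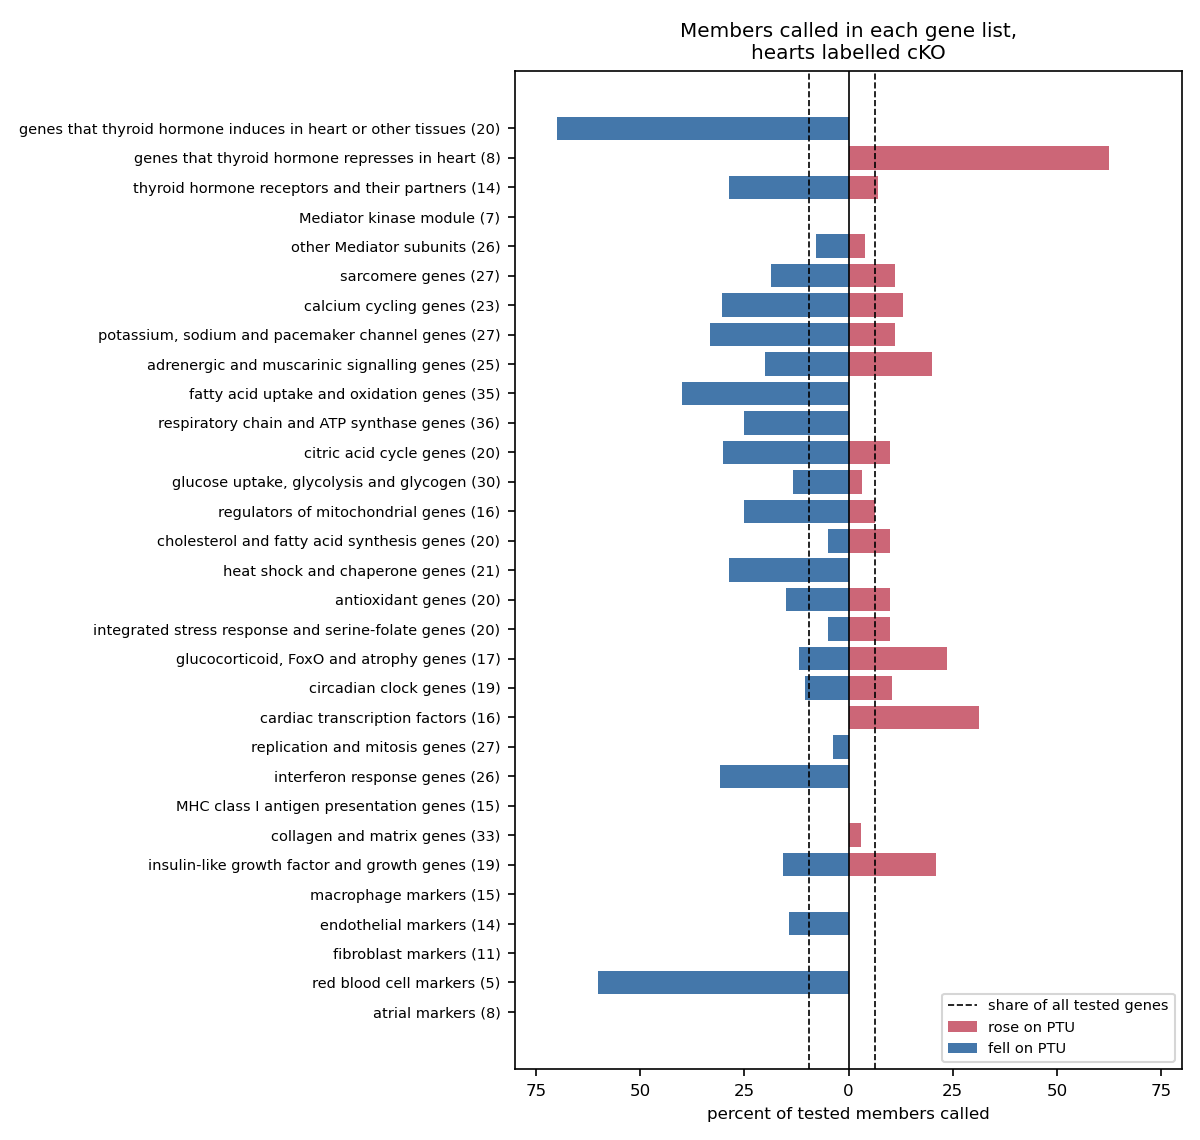
Percent of the tested members of 31 gene lists called lower (left, blue) or higher (right, red) on PTU in hearts labelled cKO, with the number tested in brackets; dashed lines mark the share of all tested genes, 9.59% lower and 6.44% higher. Hormone-induced genes were called in 14 of 20 cases, all lower, and hormone-repressed genes in 5 of 8 cases, all higher.

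Interferon response genes fell in 8 of 26 cases and none rose, with a median log2 change of -0.39. Gbp3, an interferon-induced GTPase, was at 6.26, 6.15 and 7.40 FPKM on chow and at 1.15, 2.36 and 2.04 FPKM on PTU, a log2 change of -1.44 (SE 0.19, limma adjusted p = 0.000148). Its relative Gbp2 fell by 0.96, the antiviral gene Rsad2 by 0.75 and the transcription factor Irf1 by 0.62. The summed level of the whole list was 275 to 294 FPKM on chow and 184 to 242 FPKM on PTU, with no overlap. The count was 4 without chow replicate 1, chow replicate 2 or PTU replicate 1, and 5 without chow replicate 3 or PTU replicate 3. The macrophage marker list moved beside it in 2 of the PTU hearts: its summed level was 580, 448 and 584 FPKM on chow and 220, 680 and 270 FPKM on PTU. None of the 15 macrophage markers was called and none was at the table's floor in all 6 hearts, 13 had an estimate below 0, and their part in the interferon result was not tested. In whole hearts, fewer cells of a type and less RNA per cell cannot be told apart. No MHC class I gene of 15 and no MHC class II gene of 6 was called.

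Of 33 tested collagen and matrix genes 26 had an estimate above 0, with a median log2 change of 0.29, against -0.45 in WT hearts. In WT hearts 2 of the 33 were called, both lower. The interaction of diet and genotype had an unadjusted limma p under 0.05 in 0 of the 33, so the 2 medians do not show a genotype difference. Their summed level was 1838, 1646 and 2065 FPKM on chow and 1674, 3880 and 1644 FPKM on PTU, so only PTU replicate 2 lay above every chow heart. Only 1 of the 33 genes was called, Mmp14, a membrane-bound protease. Its call ended without chow replicate 1, chow replicate 2, PTU replicate 2 or PTU replicate 3 (limma adjusted p = 0.157 without PTU replicate 2). Postn, a matrix protein of injured heart, was at 25.3, 15.7 and 30.8 FPKM on chow and at 32.1, 411 and 29.0 FPKM on PTU, and its log2 change of 1.62 became 0.39 without PTU replicate 2. Col1a1, the main fibrillar collagen chain, was at 29.97, 20.1 and 31.3 FPKM on chow and at 21.7, 170 and 18.3 FPKM on PTU, and its log2 change of 0.61 became -0.40 without PTU replicate 2. In both genes PTU replicate 2 alone was high. The atrial peptide gene Nppa was at 1093, 1277 and 2827 FPKM on chow and at 3206, 10081 and 3955 FPKM on PTU; the diets did not overlap, but the gene was not called (log2 change 1.67, limma adjusted p = 0.168). Without PTU replicate 2 the Nppa change was 1.17. Nppb, its ventricular relative, overlapped between diets at 161, 198 and 676 FPKM on chow and 373, 777 and 277 FPKM on PTU. The summed level of the other 7 atrial markers was high in PTU replicate 3. In PTU replicate 2, where Nppa was highest, that sum lay within the range of the chow hearts. The part of atrial tissue in the Nppa values was not tested.

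The summed level of red blood cell markers was 1107 to 1924 FPKM on chow and 343 to 858 FPKM on PTU, and 3 of 5 tested markers fell. Alas2, which starts haem synthesis in red cell precursors, was at 23.7, 25.4 and 41.2 FPKM on chow and at 6.70, 7.80 and 11.5 FPKM on PTU, a log2 change of -1.68. The alpha globin gene Hba-a1 was at 1015, 1216 and 1763 FPKM on chow and at 328, 377 and 806 FPKM on PTU; it has a near-identical copy, and its call ended without PTU replicate 1 (limma adjusted p = 0.053). Without PTU replicate 1, and in the fit to the 6 hearts alone, 1 of the 3 was left. Tfrc, the transferrin receptor that imports iron, is also abundant in red cell precursors. It was at 61.7, 48.3 and 19.6 FPKM on chow and at 7.15, 6.82 and 7.41 FPKM on PTU. Among chow hearts it was highest in replicate 1, where Alas2 and Hba-a1 were lowest. In WT hearts Tfrc was called, with a log2 change of -1.91, and Alas2 and Hba-a1, at -0.62 and -0.52, were not. The part of blood in the Tfrc result was not tested. No fibroblast marker of 11 and no atrial marker of 8 was called. Of 14 endothelial markers 2 fell, of which Eng, a coreceptor for growth factors of the TGF family, was at 99.6, 81.4 and 91.3 FPKM on chow and 42.9, 48.6 and 58.8 FPKM on PTU. Eng was the only endothelial call left without chow replicate 1.

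**Figure D4:**
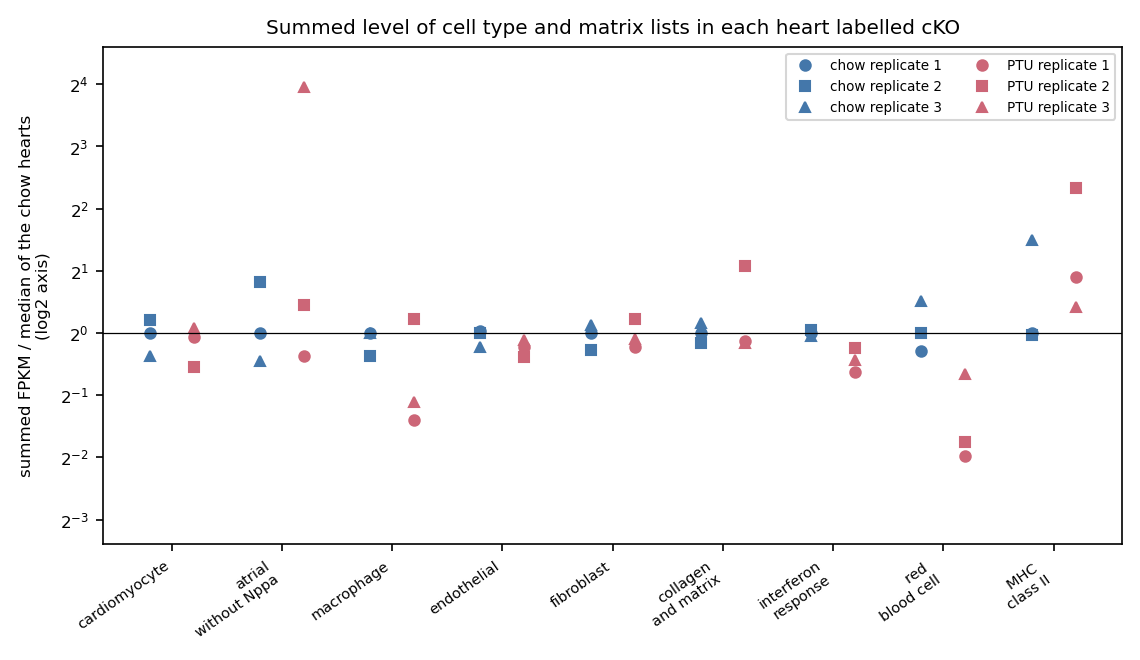
Summed FPKM of 9 lists in each heart labelled cKO, divided by the median of the chow hearts, on a log2 axis; blue is chow, red is PTU, and the symbol gives the replicate. PTU replicate 2 is high for matrix and MHC class II genes, PTU replicate 3 is high for the atrial markers other than Nppa, and all 3 PTU hearts are below the chow hearts for red blood cell and interferon response genes.

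Several of the largest changes fell outside all lists. Stbd1, which tethers glycogen to membranes, had the largest rise after Myh7, from 0.623, 0.715 and 0.390 FPKM to 18.7, 25.7 and 9.26 FPKM, a log2 change of 3.48. Its call ended when any of 5 hearts was left out (limma adjusted p = 0.0697 to 0.0898). Apod, a lipid-binding secreted protein, was at 7.63, 6.29 and 8.06 FPKM on chow and at 38.0, 48.7 and 34.0 FPKM on PTU, a log2 change of 2.30. Pafah1b3, a subunit of an enzyme that degrades platelet-activating factor, rose by 2.29. Scgb1c1, a secretoglobin, rose by 2.37, the transcript 9630028I04Rik by 1.73, and Zcchc5 by 2.42. On the lower side, Baiap2l1, an actin and membrane adaptor, was at 46.5, 52.4 and 53.0 FPKM on chow and at 5.79, 5.70 and 5.93 FPKM on PTU, a log2 change of -2.92 (SE 0.62, limma adjusted p = 0.00678). The replicates of each diet were close together in this gene, but both Baiap2l1 and Stbd1 varied widely among hearts of single other groups, as given with the WT values. Cxcl14, a chemokine, fell by 2.76, the carboxylesterase gene Ces1d by 2.57, the tubulin gene Tuba8 by 2.29 and Lrrc15 by 2.37, all with no overlap between diets.

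The response to PTU in hearts labelled cKO was set against that in WT hearts, which shares no library with it. Both sets of calls come from the same fit and share its estimate of the spread of each gene. The calls of the genotypes, and their overlap, are therefore not independent. In WT hearts 2111 genes (16.8%) were called. Of the calls, 1066 were common to both genotypes in the same direction, 416 higher and 650 lower, which is 52.9% of the calls in hearts labelled cKO and 50.5% of those in WT hearts. No gene was called in opposite directions. Of the 2017 calls in hearts labelled cKO, 97.3% had the same sign of change in WT hearts, against 73.5% of all tested genes. Across genes the log2 changes correlated with a Pearson r of 0.69; genes are not independent replicates.

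The test of the difference itself called no gene: the interaction of diet and genotype had 0 limma calls, with 805 genes (6.40%) at an unadjusted p under 0.05 and a smallest adjusted p of 0.739. Of the 951 genes called in hearts labelled cKO and not in WT, 184 were among those 805. The 951 genes were picked by the same changes that the interaction subtracts. A share above that of all tested genes is thus built into the choice and is no sign of a genotype difference. The test was coarse, with a median 95% interval of 0.37 to either side of the estimate on the log2 scale. For Myh6 the change in hearts labelled cKO minus that in WT hearts was -0.40 (95% interval -1.51 to 0.70), and for Myh7 it was -0.70 (95% interval -1.45 to 0.06). Both intervals include 0 and reach past 1 on the log2 scale, so they do not show that the genotypes respond alike.

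The gene lists with 5 or more of those 805 genes, in either direction, were these: 6 of 23 calcium genes, 6 of 25 adrenergic genes, 6 of 20 genes that the hormone induces, 5 of 27 ion channel genes and 5 of 30 genes of sugar metabolism. A cutoff by count favours long lists. Some short lists had higher shares, with 3 of 8 cardiomyocyte markers and 2 of 5 red blood cell markers, and 0 of 36 respiratory chain genes were among the 805. The lists share members, Atp2a2 and Ryr2 being in both the calcium and the hormone-induced list, so a gene can count more than once. No list was tested as a set. Atp2a2, Ryr2 and Adra1b, of the first 2 lists, were chosen here after their values were seen. Atp2a2 was at 3082, 3178 and 1818 FPKM in WT chow hearts and at 1835, 1107 and 1860 FPKM in WT PTU hearts, which overlap. Its WT change was -0.75 against -1.58 in hearts labelled cKO, a difference of -0.83 (95% interval -1.64 to -0.02, limma adjusted p = 0.764). For Ryr2 the difference was -0.53 (95% interval -1.05 to 0.00, limma adjusted p = 0.764), and for Adra1b it was -0.59 (95% interval -1.05 to -0.13, limma adjusted p = 0.764). These intervals are not adjusted for the number of genes.

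Enkur, which encodes a ciliary protein, had the smallest interaction p. It was at 1.01, 0.528 and 2.27 FPKM on chow and 8.41, 6.10 and 9.79 FPKM on PTU in hearts labelled cKO, and at 4.65, 3.31 and 2.82 FPKM on chow and 2.96, 5.65 and 3.21 FPKM on PTU in WT hearts. The diets were apart in hearts labelled cKO and mixed in WT hearts. The difference was 1.97 (95% interval 1.17 to 2.77, limma adjusted p = 0.739). Without chow replicate 3 of the hearts labelled cKO it was called (limma adjusted p = 0.0413). For Egf, the epidermal growth factor gene, the difference was -1.05, for Lad1 -1.66, for Kcne1 -1.56 and for Cd28 -0.94, each with a limma adjusted p of at least 0.739.

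For Baiap2l1 and Stbd1 the WT chow hearts differed among themselves. Baiap2l1 was at 7.42, 7.69 and 42.0 FPKM in WT chow hearts and at 6.25, 5.99 and 7.14 FPKM in WT PTU hearts. Stbd1 was at 14.8, 10.8 and 0.908 FPKM in WT chow hearts and at 15.9, 12.7 and 14.2 FPKM in WT PTU hearts. In each gene WT chow replicate 3 was the WT chow heart nearest to the chow hearts labelled cKO. The label of that heart was taken as given and could not be checked from the Med13 level, so each WT value and interaction rests on it; without it the interaction again had 0 calls, and 511 genes had an unadjusted interaction p under 0.05. On PTU followed by T3, Baiap2l1 was at 37.5, 5.61 and 6.61 FPKM in hearts labelled cKO and at 5.99, 6.54 and 5.72 FPKM in WT hearts. Stbd1 there was at 10.5, 5.27 and 0.956 FPKM in hearts labelled cKO and at 0.537, 25.7 and 11.5 FPKM in WT hearts. Hearts of the same genotype and treatment thus stood on either level, and 3 hearts per diet cannot tell such variation between hearts apart from a response to PTU. The interaction was -1.94 for Baiap2l1 (limma adjusted p = 0.764) and 2.38 for Stbd1 (limma adjusted p = 0.799). What sets these hearts apart was not tested.

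**Figure D5:**
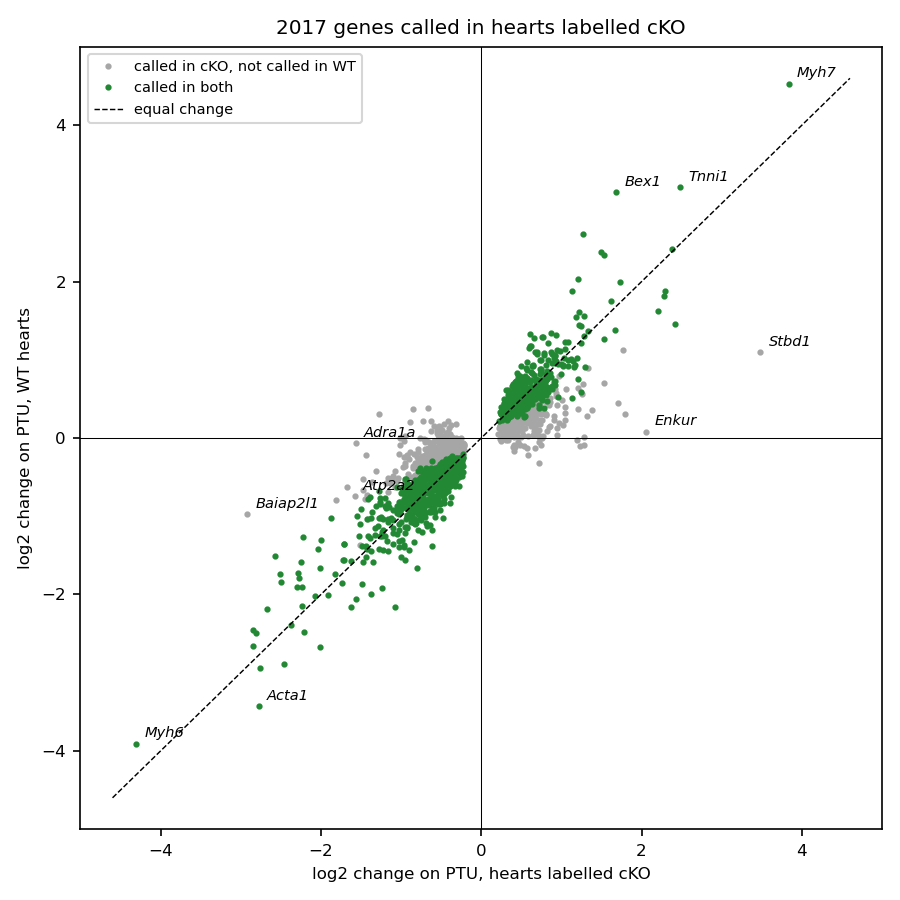
Log2 change on PTU in hearts labelled cKO (horizontal) and in WT hearts (vertical) for the 2017 genes called in the former; green points were called in both genotypes, grey points not in WT, and the dashed line marks equal change. Myh6 and Myh7 lie nearer to the line than Stbd1 and Enkur, the latter at 2.05 in hearts labelled cKO and 0.08 in WT.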

How the data were processed

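RNA sequencing values of 18 mouse hearts, 6 groups of 3 by genotype and treatment label, were used as the authors deposited them: gene-level FPKM, 1 column per library, for 24341 genes. Alignment with Bowtie2 and quantification with Cufflinks on mm10 are recorded per the submitters' processing notes; their versions, the annotation and the use of strand are not given in the sources used here, and libraries were unstranded. Read totals are lacking, so depth is known only as a ratio between libraries. A floor of 0.01 filled 152291 cells. Cacna2d1 and Trip10 held failed estimates and were left out. Comparison tables of the authors were not used, since none sets PTU against chow in hearts labelled cKO.

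The test covered 12587 genes that reached 1 FPKM in 3 or more libraries, on log2(FPKM + 1), with limma 3.58.1 in R 4.3.3. The model had 6 group means over all 18 libraries and 12 residual degrees of freedom, with trended and robust variance moderation and Benjamini-Hochberg adjustment over all tested genes. Tests are two-sided, intervals cover 95% and are not adjusted, and the model was tested on simulated data. Named genes are a panel, the top 15 called genes by log2 change in each direction among those whose diets do not overlap, up to 5 called members per list, and the 5 genes with the smallest interaction p. Klf9, Adrb1, Postn, Col1a1 and Myl7, and the interaction calls that appear only under an alternative, fall outside that rule and were chosen after their values were seen. Some genes that meet the rule are not reported here. The members, lists and rules were chosen with earlier results of these data known. Alternatives varied the pseudocount, filter, scaling, samples in the fit, variance moderation, weights and each left-out heart. Promoter sequences are from RefSeq on GRCm38.p6, the build also called mm10.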

Additional observations from a re-analysis of the deposited data

How the results depend on the processing

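The count of genes called on PTU in hearts labelled cKO was 2017, and it moved to 992 in a fit to the 6 hearts alone. It ranged from 955 to 1942 when 1 heart was left out, with 955 without chow replicate 1, 1265 without chow replicate 2 and 1255 without PTU replicate 1. Without chow replicate 1, 46.7% of the 2017 calls remained. Genes called with a log2 change of at least 1 numbered 201, 328 with a pseudocount of 0.1 and 89 with a pseudocount of 5. The interaction of diet and genotype had 0 calls, 3 with no filter on low values (Gm5294, Spata45 and Tepp, all under 1 FPKM in these hearts) and 0 to 2 when 1 heart was left out, the 2 being Enkur and Spink4 without chow replicate 3. The sign of the change turned for Pln (0.17 with quantile normalization, 0.07 without chow replicate 1, 0.07 without chow replicate 2 and 0.15 without PTU replicate 2, and from -0.21 to 0.15 over the left-out hearts), for Col1a1 (-0.40 without PTU replicate 2, up to 1.17 over the left-out hearts) and for Myl7 (-0.49 without PTU replicate 3, up to 2.04); none of these genes was called. Of 93 genes followed, 79 were called. Of these, 68 held their call in each of 15 alternatives and 11 lost it in at least 1. Most of the genes followed were picked for large called changes, so their stability does not stand for all 2017 calls. Of those, 47.2% remained in the fit to the 6 hearts alone. Of the genes not called, Thrb (without chow replicate 3), Ppargc1a (quantile normalization), and Tnni3 and Cd28 (array weights, without chow replicate 3, without PTU replicate 3) gained a call. Depth is known only relative to the other libraries, and 3 hearts per group limit what can be detected. No paired analysis was possible because the labels number each library on its own and pair none across diets.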
